A study of Mus musculus with 22 samples.

Results

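The genes described here lie in a proximal stretch of mouse chromosome 12 that is made largely of duplicated sequence. All genes of the deposited count table were taken whose annotation lay between chr12:17902389 and chr12:24097246 of mm10 (GRCm38), which gave 163 of 52636 genes over 6.19 Mb. The study placed the interval on the paired-end oocytes below, from genes that differed between double mutants and RNAi mutants, and it lists 21 genes of the cluster, of which 20 are members. Values of the paired-end oocytes are therefore a description and carry no test.

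RNA-seq had been made from fully grown (germinal vesicle stage) oocytes of C57BL/6 mice in 22 samples, each from a pool of 25 oocytes. A single-end run of 50-nt reads held 3 wild-type samples, 1 sample heterozygous for the Dicer dMT allele (Dicer-dMT/WT), 4 Dicer-dMT/dMT samples and 3 Dicer-SOM/SOM samples, whose labels give no age. A paired-end run of 75-nt reads held 4 heterozygous controls (from mice of 36, 38, 10 and 17 weeks, Dicer-SOM/WT with Mili-DAH/WT), 2 RNAi mutants (17 and 13 weeks, Dicer-SOM/SOM with Mili-DAH/WT), 1 piRNA mutant (16 weeks, Dicer-SOM/WT with Mili-DAH/DAH) and 4 double mutants (40, 35, 11 and 11 weeks, Dicer-SOM/SOM with Mili-DAH/DAH). Values of replicates are given in this order throughout. The methods of the study name 1 age range for its mice, and it is narrower than that of the paired-end labels. The dMT allele lacks the MT retrotransposon promoter of the oocyte isoform of Dicer, the SOM allele, from a line that goes back to 1 embryonic stem cell clone, leaves only the full-length form, and the DAH allele changes the catalytic site of MILI. Every paired-end group, the controls included, carried at least 1 SOM and 1 DAH allele. The labels do not say that replicates came from separate animals, so each p-value measures only the spread between these samples.

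Dicer cuts double-stranded RNA into small interfering RNAs, and mouse oocytes make a shortened, more active Dicer that feeds RNA interference (RNAi). MILI is a PIWI protein that cuts transcripts, retrotransposon transcripts above all, with PIWI-interacting RNAs (piRNAs) as guides. Stretches of recent segmental duplication hold many near-identical copies of genes and pseudogenes, so the transcripts of one copy are hard to tell from those of another.

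Of the 163 members, GENCODE types 73 as processed pseudogenes, 45 as unprocessed pseudogenes and 10 as protein-coding genes. Sequence comparison of their transcripts, made after their values were seen, put them into 3 groups and left 74 in none. A short unit of 126 bases was found in 42 members, with Asap2 kept out. Another gene, Hpcal1, a calcium sensor gene that lies before the interval, was resembled by 45 members. Another 10 members resembled Gm38699 or Gm10330 over at least 300 bases and are called zinc finger-like here after Zfp125, 1 of the 10. The short unit and Hpcal1-like groups share 6 members, 2 of them listed by the study. The short unit and the zinc finger-like groups share 2 members, together hold 50, and these include all 20 members that the study lists. The study chose those 20 on these samples, so their values are no independent evidence of direction.

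The short unit is shown because 24 of the 30 unit members that passed the count filter stood higher in double mutants, by the rule given below. The number was the same against RNAi mutants and against controls, where 3.07% and 9.05% of all genes were higher. Of the 24, 16 passed the filter only through the double mutants, which selects high members. Of the 12 unit members that passed it without them, 8 were higher. The lines give the 9 annotated copies in which the whole transcript is the unit, from GENCODE M21 on GRCm38, in order along the chromosome and each 5′ to 3′ on its own strand. Capitals mark a base that is not the commonest one of the 9 copies at its place. Gm49326 (chr12:17882197-17882322, plus strand) lies before the interval and Gm21297 (chr12:24252056-24252181, minus strand) after it. The 7 members are Gm49330 (chr12:17993133-17993258, plus), Gm9229 (chr12:18136186-18136311, plus), Gm17391 (chr12:22622962-22623087, minus), Gm48042 (chr12:22906038-22906163, minus), Gm47385 (chr12:23189273-23189398, minus), Gm49386 (chr12:23634350-23634475, minus) and Gm47437 (chr12:23800521-23800646, minus).
Gm49326: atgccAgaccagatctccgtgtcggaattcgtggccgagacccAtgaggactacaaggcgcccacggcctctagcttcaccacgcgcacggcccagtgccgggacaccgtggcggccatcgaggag
Gm49330: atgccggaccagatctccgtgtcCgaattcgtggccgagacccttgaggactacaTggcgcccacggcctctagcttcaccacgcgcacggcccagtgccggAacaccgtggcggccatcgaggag
Gm9229: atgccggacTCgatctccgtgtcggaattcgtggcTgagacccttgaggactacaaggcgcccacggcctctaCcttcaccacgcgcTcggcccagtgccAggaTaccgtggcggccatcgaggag
Gm17391: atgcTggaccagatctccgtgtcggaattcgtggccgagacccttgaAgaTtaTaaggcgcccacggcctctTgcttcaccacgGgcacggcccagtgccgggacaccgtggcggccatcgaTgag
Gm48042: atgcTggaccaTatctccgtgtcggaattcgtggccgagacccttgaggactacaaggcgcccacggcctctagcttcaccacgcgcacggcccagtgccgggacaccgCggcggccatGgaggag
Gm47385: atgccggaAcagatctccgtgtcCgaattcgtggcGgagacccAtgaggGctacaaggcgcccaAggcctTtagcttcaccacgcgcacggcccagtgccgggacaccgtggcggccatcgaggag
Gm49386: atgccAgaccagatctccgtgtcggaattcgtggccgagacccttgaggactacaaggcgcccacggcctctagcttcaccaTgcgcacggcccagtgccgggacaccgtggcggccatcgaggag
Gm47437: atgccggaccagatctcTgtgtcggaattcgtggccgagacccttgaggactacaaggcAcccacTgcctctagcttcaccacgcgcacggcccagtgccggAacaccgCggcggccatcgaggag
Gm21297: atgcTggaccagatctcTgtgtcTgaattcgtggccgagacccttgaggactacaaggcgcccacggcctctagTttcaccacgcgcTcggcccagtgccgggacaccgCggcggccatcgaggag

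All 9 copies had the same base at 95 of the 126 places, and a copy differed from the commonest base at 2 to 7 places. The unit also aligned, at 96.0% identity, to the start of the coding sequence of Asap2, a regulator of ARF GTPases whose own gene lies in the middle of the interval. In the Asap2 transcript of 5678 bases the aligned stretch ran from base 297 to base 422, and base 297 is the first base of the start codon. Asap2 was not counted among the unit members, and its values, given below, overlapped between controls and double mutants.

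A second shared sequence lies just before some of the units. RefSeq gives 58 start sites within the interval, and 14 of their promoters (250 bases before to 50 bases after the start site) aligned to that of Gm38699 over at least 150 bases, the 13 others at 75.6 to 95.5% identity. In 9 of the 14 a short-unit gene began 264 to 370 bases downstream of the start site on the same strand, with a median of 323 bases. The neighbouring start sites of LOC108167368, chr12:20614961 and chr12:20614963, are counted apart here though both lead to the same unit, Gm16476. The lines show the promoters of 4 members on GRCm38.p6, from RefSeq, 5′ to 3′ on the strand of the gene, with words of at least 12 bases that all 4 share in capitals. They are 5730507C01Rik (chr12:18514260-18514559, plus), Gm5784 (chr12:19387620-19387919, plus), 2410018L13Rik (chr12:23010194-23010493, minus) and Gm38699 (chr12:23800906-23801205, minus).
5730507C01Rik: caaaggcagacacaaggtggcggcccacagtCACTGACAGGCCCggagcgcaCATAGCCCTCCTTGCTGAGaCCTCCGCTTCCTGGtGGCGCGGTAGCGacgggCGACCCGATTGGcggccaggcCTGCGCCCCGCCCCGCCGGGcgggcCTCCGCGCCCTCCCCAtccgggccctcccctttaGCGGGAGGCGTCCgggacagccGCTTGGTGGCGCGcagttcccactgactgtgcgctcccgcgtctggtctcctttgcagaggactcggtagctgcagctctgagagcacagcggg
Gm5784: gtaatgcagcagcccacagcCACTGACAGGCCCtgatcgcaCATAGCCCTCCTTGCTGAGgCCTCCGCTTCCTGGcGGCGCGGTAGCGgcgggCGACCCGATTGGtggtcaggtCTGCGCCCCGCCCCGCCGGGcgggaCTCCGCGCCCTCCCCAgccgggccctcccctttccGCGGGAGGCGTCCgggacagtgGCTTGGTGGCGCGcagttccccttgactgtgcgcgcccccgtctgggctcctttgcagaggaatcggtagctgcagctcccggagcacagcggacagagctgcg
2410018L13Rik: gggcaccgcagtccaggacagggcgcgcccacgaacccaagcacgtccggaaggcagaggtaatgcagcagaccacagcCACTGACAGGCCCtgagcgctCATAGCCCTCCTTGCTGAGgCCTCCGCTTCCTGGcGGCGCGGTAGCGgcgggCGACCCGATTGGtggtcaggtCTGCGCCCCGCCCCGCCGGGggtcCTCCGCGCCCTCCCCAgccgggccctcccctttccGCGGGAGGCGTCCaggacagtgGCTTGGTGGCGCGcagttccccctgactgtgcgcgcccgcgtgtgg
Gm38699: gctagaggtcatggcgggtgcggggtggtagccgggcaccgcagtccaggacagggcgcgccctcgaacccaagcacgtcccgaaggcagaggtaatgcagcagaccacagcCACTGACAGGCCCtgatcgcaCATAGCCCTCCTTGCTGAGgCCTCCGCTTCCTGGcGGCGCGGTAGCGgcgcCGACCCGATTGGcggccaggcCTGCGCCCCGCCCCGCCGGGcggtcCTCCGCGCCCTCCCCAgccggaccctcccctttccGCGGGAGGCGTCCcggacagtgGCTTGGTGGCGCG

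Shared words covered 132 of the 300 bases in each of the 4. The longest of them, CTGCGCCCCGCCCCGCCGGG, was found on either strand in 6 of 32851 RefSeq promoters (0.0183%), all 6 within the interval. It was picked from these 4 promoters, so its place in the interval is a description.

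The copies point in opposite directions on either side of 6 genes, Asap2 among them, that run from chr12:21111748 to chr12:21417560. They are called single-copy here, although the start of the Asap2 coding sequence is like the unit. Before these genes 20 of 25 unit members lay on the plus strand, and after them all 16 lay on the minus strand. The Hpcal1-like members had the same arrangement, with 22 of 24 on the plus strand before and 19 of 21 on the minus strand after. The map of the interval shows this turn and the values that the next paragraphs describe.

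**Figure D1:**
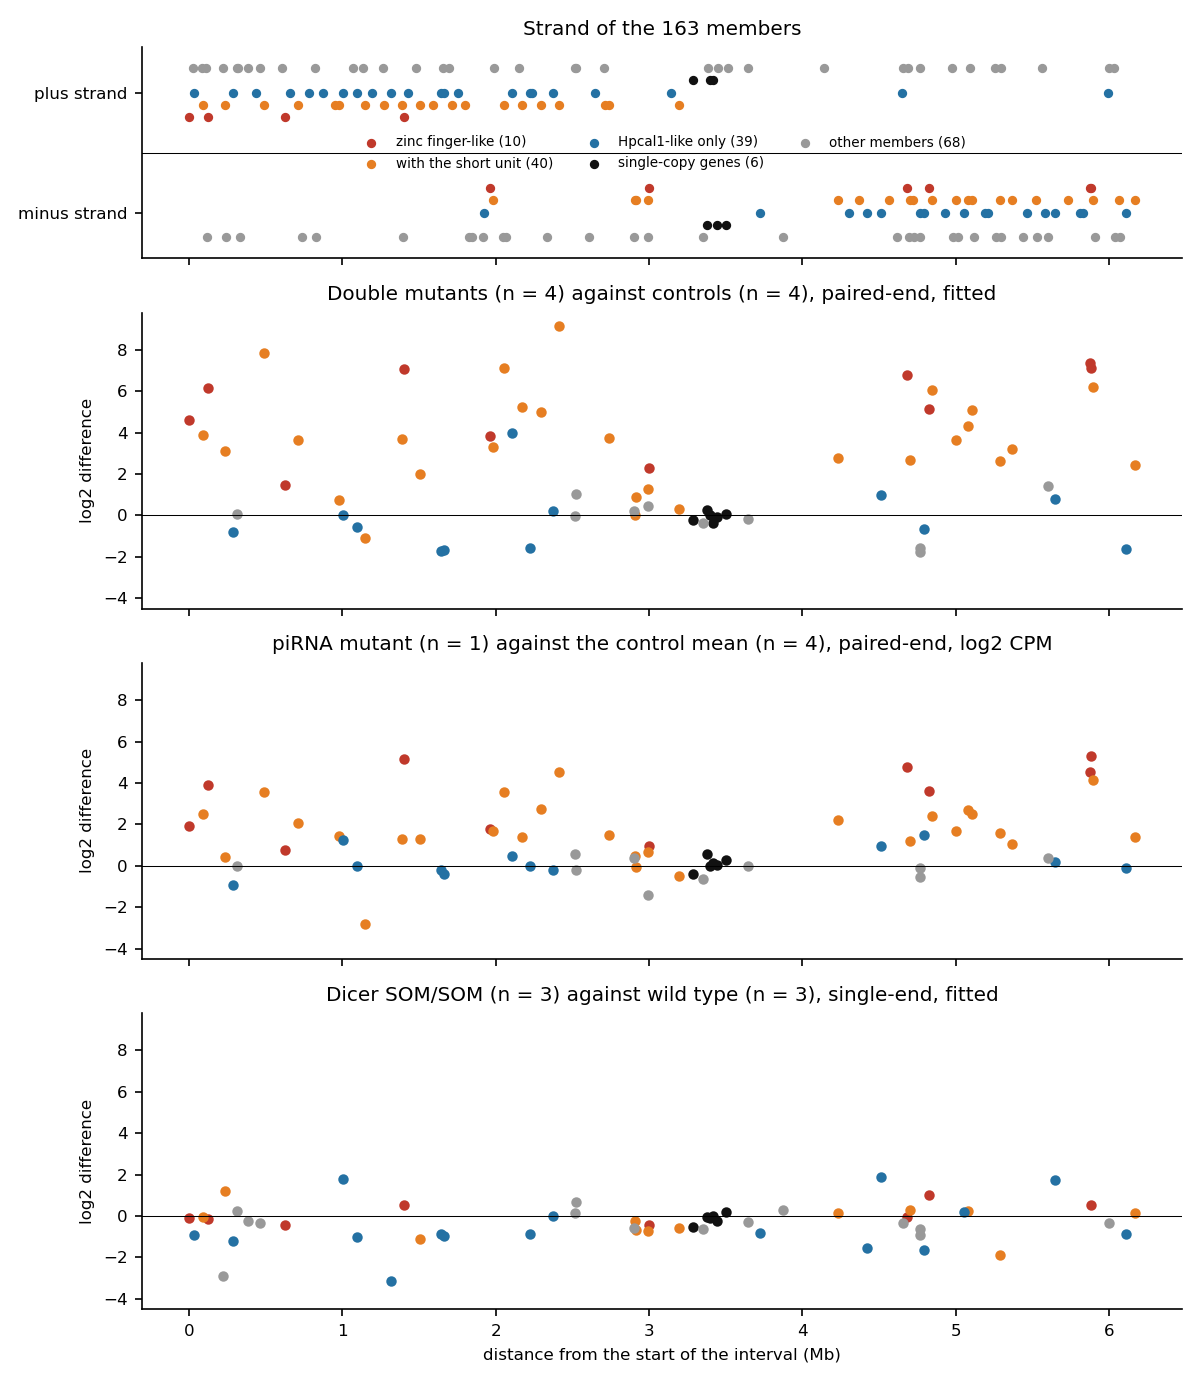
Members by distance from the start of the interval (x axis, Mb). The top panel gives the strand of all 163 members, coloured by sequence group, and the 3 lower panels give log2 differences of the members that passed the count filter, for double mutants against controls, the piRNA mutant against the control mean and Dicer-SOM/SOM against wild type; the zinc finger-like members and most unit members stand above the line in the panels of the double mutants and of the piRNA mutant on both sides of the single-copy genes, which stay near it.

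The deposited counts are estimates in which a read that matches several places is divided between them, and strand was not used in counting. Of 155 members with any count, 154 had at least 1 count that was over 0.005 away from a whole number, all 20 listed members among them. The value of one copy is therefore uncertain and holds best for its group, and antisense or overlapping genes cannot be told apart. Total counts ran from 6468380 to 90713013 per single-end sample and from 22928936 to 43540806 per paired-end sample. Levels are given as CPM, the counts of a gene per 1000000 counts of the scaled library, and 3 counts correspond to 0.0355 to 0.435 CPM. The 9 oocyte markers looked at were over 3 counts in every library and summed to 10650 to 13917 CPM, and 8 granulosa and cumulus markers to 33.1 to 81.0 CPM. Dicer1 ran from 41.9 to 62.1 CPM in all SOM/SOM oocytes of both runs and from 428 to 1057 CPM in all other samples.

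Most members were hardly represented in any sample. Over 3 counts were reached in all 22 samples by 18 members and in at least 1 sample by 118, and 8 members had no count at all. The filter on low counts was passed by 56 members in the single-end run, 66 in the paired-end run and 77 in either. Of the 86 that passed in neither, the highest value in any sample was 0.460 CPM, in Gm4419.

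The members with the highest level per length in wild type were Adam17 at 66.2 RPKM (CPM per kilobase of exon), Gm48032 at 48.9, Bnip3l-ps at 46.1, Gm47441 at 41.3 and Gm49371 at 36.5. Adam17 encodes a protease that sheds membrane proteins, Bnip3l-ps is a processed pseudogene of the mitophagy receptor gene Bnip3l, and the other 3 are a long non-coding RNA (Gm49371) and pseudogenes of 105 and 117 bases. In short genes RPKM is set by few reads that often match elsewhere. Gm47441 had 3.16 to 5.32 CPM in the single-end samples and 0.0169 to 0.238 CPM in the paired-end samples. It was 1 of 5 members, with Gm46312, Gm9231, Gm48016 and Mrto4-ps1, that stood over 5-fold higher in wild type than in the controls of the other run, out of 27 members at 1 CPM or more. None stood over 5-fold higher the other way. Levels are therefore compared only within a run.

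The single-copy genes in the middle of the interval overlapped between controls and double mutants. Adam17 had 288, 312 and 295 CPM in wild type, 299.8, 299, 249.9 and 273 CPM in the controls and 301, 227, 262 and 265 CPM in double mutants. Cpsf3, the endonuclease that cuts pre-mRNA at its 3′ end, had 87.5, 78.2, 71.4 and 78.1 CPM in the controls and 82.2, 79.3, 80.8 and 75.8 CPM in double mutants. Ywhaq, a phosphoserine-binding adaptor protein, had 111, 124, 164 and 121 CPM in the controls and 111, 141, 138 and 154 CPM in double mutants. Itgb1bp1, which binds an integrin tail, ran from 20.1 to 37.7 CPM in the controls and from 25.6 to 38.5 CPM in double mutants. Iah1, an esterase, ran from 5.10 to 14.7 and from 7.40 to 8.09 CPM in the same groups. Asap2 had 114, 126, 98.1 and 113 CPM in the controls and 134, 94.0, 85.7 and 74.1 CPM in double mutants.

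Oocytes that lacked both pathways showed another picture in the duplicated members. Taking as higher a fitted difference of at least 1 log2 unit with no overlap between samples, 33 of the 66 members that passed the filter were higher in double mutants than in RNAi mutants and 7 were lower. Over all 20989 genes fitted, 3.07% were higher and 1.06% lower by the same rule. Against heterozygous controls 33 members were higher and 6 lower, where the shares over all genes were 9.05% and 3.64%. The interval and the list of 20 were fixed by the study on the first of these contrasts and both share the double mutants, so nothing is read from the members' share. All 20 listed members were among the 33 in both. Of the 66 members, 26 passed the filter only through the double mutants, with 40 left when those samples were not counted in it, against 1550 of the 20989 genes. Passing in this way selects members that are high in double mutants, and it applies to 22 of the 33 against RNAi mutants, 23 of the 33 against controls and 13 of the 20 listed members. The median log2 difference over fitted members was 1.29 against RNAi mutants and 1.45 against controls, beside 0.01 and -0.00 over all genes. A pool with fewer oocytes that express a gene and less RNA per oocyte cannot be told apart in such samples.

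Among the listed members, the highest levels in double mutants were those of zinc finger-like members. All 10 are on the list of the study and were higher in both contrasts, beside 3.07% and 9.05% of all genes. The group was defined by likeness to Gm38699 or Gm10330, both listed, and 6 of the 10 passed the filter only through the double mutants. Nothing is therefore read from their shared direction. Taken along the interval, Gm49331 (chr12:17902389-17904675) comes first, with 0.231, 0.147, 0.198 and 0.234 CPM in the controls, 0.368 and 0.128 in RNAi mutants and 4.23, 6.72, 3.93 and 4.76 in double mutants. Gm49328 (chr12:18024067-18027467) had 0.231, 0.113, 0.176 and 0.304 CPM in the controls, 0.335 and 0.279 in RNAi mutants and 15.5, 15.8, 11.6 and 14.8 in double mutants. In both genes controls and RNAi mutants overlapped, and the lowest double mutant lay 10.7 and 34.6 times above the highest of them.

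5730507C01Rik (chr12:18514510-18535254), a protein-coding member that also holds the short unit, was an exception in its starting level. It had 7.65, 16.7, 13.2 and 9.63 CPM in the controls, 9.28 and 11.8 in RNAi mutants and 28.3, 33.4, 33.4 and 37.1 in double mutants, a log2 difference of 1.49 ± 0.22 (SE) from the controls. It was thus well represented without either mutation and showed the smallest fitted difference of the listed members in both contrasts. Gm46339 (chr12:19301653-19305191) had 0.0337, 0.0693, 0.0738 and 0.116 CPM in the controls, 0.133 and 0.225 in RNAi mutants and 5.40, 8.97, 9.94 and 14.6 in double mutants. The lowest double mutant lay 24.0 times above the highest of the other 6 samples. Gm48643 (chr12:19865126-19865495) was low, at 0.0492 to 0.194 CPM in the controls, 0.0216 and 0.0814 in RNAi mutants and 1.01 to 2.02 in double mutants.

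Zfp125 (chr12:20877084-20921262), typed as a transcribed pseudogene, had 2.55, 1.52, 1.35 and 1.46 CPM in the controls, 1.0 and 1.03 in RNAi mutants and 9.52, 8.17, 7.57 and 9.21 in double mutants. Both RNAi mutants lay under all 4 controls and the double mutants above all of them. The log2 difference of double mutants was 2.30 ± 0.23 from the controls and 3.08 ± 0.33 from RNAi mutants.

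The 4 zinc finger-like members beyond the single-copy genes all lie on the minus strand. Gm49377 (chr12:22584129-22587635) had 0.133, 0.126, 0.127 and 0.104 CPM in the controls, 0.0969 and 0.156 in RNAi mutants and 15.5, 13.2, 14.2 and 16.3 in double mutants. Gm10330 (chr12:23778912-23780265), annotated as protein-coding, had 0.0285, 0.218, 0.0905 and 0.0221 CPM in the controls, 0.0865 and 0.107 in RNAi mutants and 19.1, 14, 14.7 and 14.5 in double mutants. Gm38699 (chr12:23780857-23784131), whose promoter is shown above, had 0.0910, 0.0790, 0.196 and 0.251 CPM in the controls, 0.224 and 0.13 in RNAi mutants and 23.0, 19.1, 17.8 and 21.9 in double mutants. The lowest double mutant stood 84.8, 64.4 and 70.9 times above the highest of the other 6 samples in these 3 genes. Their log2 differences from the controls were 6.81 ± 0.25, 7.36 ± 0.39 and 7.11 ± 0.30, and from RNAi mutants 6.77 ± 0.34, 7.24 ± 0.54 and 6.89 ± 0.40. Gm48035 (chr12:22725142-22726590) had 0.254, 0.0933, 0.213 and 0.238 CPM in the controls, 0.581 and 0.796 in RNAi mutants and 3.75, 8.72, 8.15 and 8.20 in double mutants, so that here both RNAi mutants stood between the other groups.

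**Figure D2:**
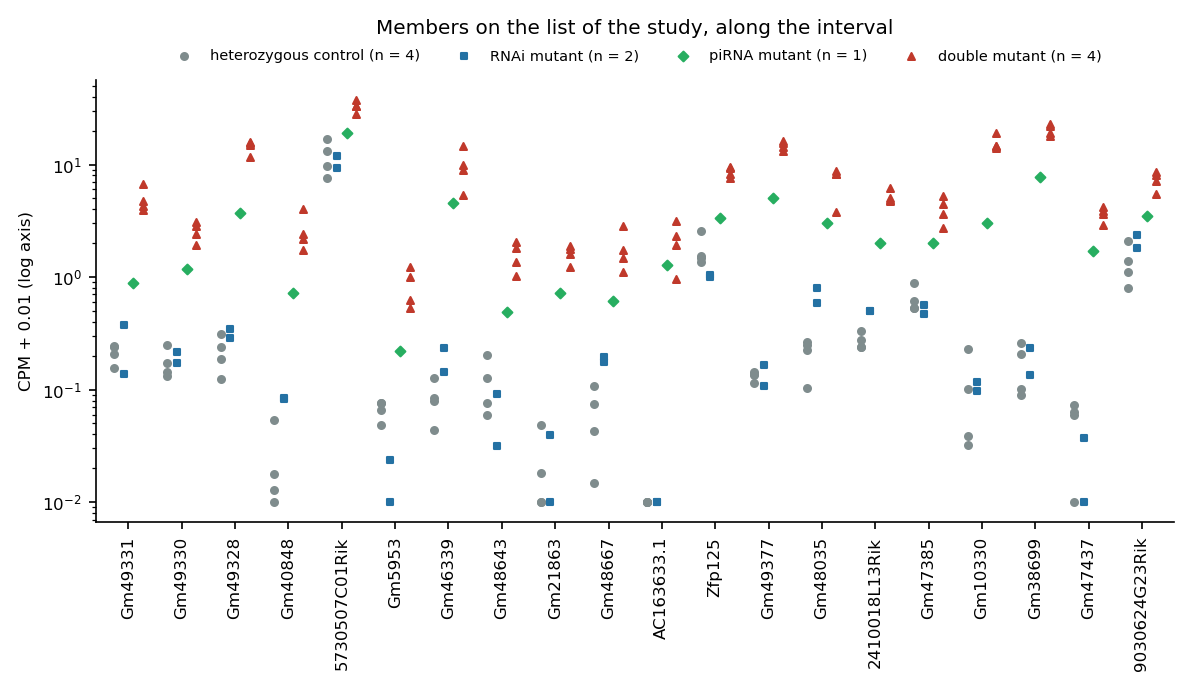
CPM with 0.01 added (y axis, log scale) of the 20 listed members in order along the interval (x axis), 1 symbol per sample for 4 heterozygous controls, 2 RNAi mutants, 1 piRNA mutant and 4 double mutants. The double mutants lie above all controls and RNAi mutants in all 20 genes, and the piRNA mutant lies between in 19 of them.

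Among the listed members that hold the short unit, the bare units themselves were represented. Gm47437, 1 of the sequences shown above, had 0.0492, 0, 0.0533 and 0.0629 CPM in the controls, 0 and 0.0271 in RNAi mutants and 4.18, 3.66, 2.87 and 3.88 in double mutants. Gm47385, another of them, had 0.524, 0.884, 0.608 and 0.525 CPM in the controls, 0.463 and 0.560 in RNAi mutants and 2.74, 4.42, 3.62 and 5.23 in double mutants. Gm49330 had 0.122, 0.134, 0.238 and 0.163 CPM in the controls, 0.163 and 0.205 in RNAi mutants and 2.39, 2.84, 1.91 and 3.06 in double mutants. The 3 copies thus started from unequal levels and ended within 1.91 to 5.23 CPM.

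AC163633.1 (chr12:20312515-20312680) had no count in any control or RNAi mutant and 0.95, 1.92, 2.31 and 3.17 CPM in double mutants. With 3 counts per library as the floor, double mutants stood at least 22.3-fold higher than controls and at least 20.2-fold higher than RNAi mutants. Other listed unit members rest on very few control counts. Gm21863 (chr12:19954505-19954840) had 1 count over the 4 controls, when rounded, and 235 over the 4 double mutants, a ratio of CPM of 214 with an exact 95% counting interval of 38.0 to 8470. Gm40848 (chr12:18387755-18388078) had 2 and 360 such counts, a ratio of 164 with an interval of 45.0 to 1356. These intervals cover counting error only. Gm5953 (chr12:19288562-19291177) was at 0 and 0.0136 CPM in RNAi mutants and 0.522 to 1.22 CPM in double mutants, and Gm48667 (chr12:20196916-20197054) at 0.166 and 0.184 CPM and 1.11 to 2.82 CPM. None of these 5 members overlapped between double mutants and the other 2 groups.

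Longer listed members that hold the unit were 2410018L13Rik (chr12:22953999-23010284), a long non-coding RNA, and 9030624G23Rik (chr12:24043202-24097246), annotated as protein-coding. 2410018L13Rik had 0.264, 0.227, 0.231 and 0.325 CPM in the controls, 0.485 and 0.488 in RNAi mutants and 5.04, 4.73, 4.84 and 6.19 in double mutants. 9030624G23Rik had 2.09, 0.788, 1.09 and 1.39 CPM in the controls, 1.80 and 2.34 in RNAi mutants and 5.41, 8.11, 7.18 and 8.62 in double mutants. Both RNAi mutants lay above all controls in 2410018L13Rik, and overlapped them in 9030624G23Rik.

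The unit and zinc finger-like groups also hold 30 members that the study does not list. Of these, 18 passed the filter and 12 of the 18 were higher in double mutants in each contrast, with none lower. Of these 12, 9 passed the filter only through the double mutants, and of the 7 members that passed it without them 3 were higher. All genes gave 3.07% higher than RNAi mutants and 9.05% higher than controls, as above. Gm40864 was the highest of them, with 0.290, 1.24, 0.796 and 0.726 CPM in the controls and 6.07, 3.24, 5.03 and 4.99 CPM in double mutants, followed by Gm4425 with 0.167, 0.260, 0.353 and 0.241 and then 0.864, 1.96, 2.20 and 2.09 CPM. Neither overlapped. Gm48046, which lies 276 bases downstream of the 2410018L13Rik start site, had 0, 0.00167, 0.0186 and 0.0241 CPM in the controls, none in RNAi mutants and 0.640, 0.637, 0.551 and 0.795 in double mutants. Gm9229, a unit shown above, had 0.0364, 0.00367, 0.139 and 0.0582 CPM in the controls, 0.324 and 0.298 in RNAi mutants and 0.391, 0.756, 0.427 and 0.631 in double mutants. It was already higher in RNAi mutants than in any control. These members were picked for naming after their values were seen.

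The Hpcal1-like members, 6 of which also hold the short unit, differed in direction among themselves. Of the 18 that passed the filter, 4 were higher in double mutants than in RNAi mutants and 6 lower, and 5 were higher and 4 lower against controls. These are 22.2% and 33.3% against RNAi mutants, beside 3.07% and 1.06% of all genes, and 27.8% and 22.2% against controls, beside 9.05% and 3.64%. All 4 that were higher than in RNAi mutants hold the short unit, and none of the lower ones in either contrast does. Against controls 1 of the 5 higher Hpcal1-like members does not hold it. The most abundant, Gm49371 (chr12:19560110-19564157), had 53.7, 84.8, 43.9 and 68.5 CPM in the controls, 37.3 and 42.5 in RNAi mutants, 46.7 in the piRNA mutant and 17.1, 17.7, 13.4 and 29.8 in double mutants. All double mutants lay below all other paired-end samples. Gm5954 (chr12:24013354-24016997) had 3.61, 5.31, 2.35 and 4.52 CPM in the controls, 2.59 and 3.23 in RNAi mutants, 3.51 in the piRNA mutant and 0.898, 1.48, 1.17 and 1.63 in double mutants. Gm6943 and Gm9265, which share a stretch of 100 identical bases with Gm49371 and so may share its reads, also had all double mutants below all other paired-end samples. Gm6943 ran from 5.88 to 12.5 CPM in the controls and from 2.29 to 4.33 CPM in double mutants.

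Members in neither the unit nor the zinc finger-like group were more often lower than higher, and most of the lower ones were Hpcal1-like members already counted above. Of 28 that passed the filter, 1 was higher and 7 were lower in double mutants than in RNAi mutants, and against controls 1 was higher and 6 lower. The 3.57% that were higher lay near the 3.07% of all genes against RNAi mutants and under the 9.05% against controls, whereas the 25% and 21.4% that were lower lay above the 1.06% and 3.64% of all genes. The 16 of these members in none of the 3 groups gave 1 higher and 1 lower against RNAi mutants, 6.25% each. Against controls they gave 0 higher and 2 lower (12.5%). As above, nothing is read from these shares. Bnip3l-ps, with 24.8, 27.2, 33.5 and 25.9 CPM in the controls and 27.3, 28.9, 30.6 and 30.8 CPM in double mutants, overlapped between groups. Genes within 2 Mb on either side of the interval gave 4 higher and none lower of 34 in each contrast, 11.8% beside 3.07% of all genes against RNAi mutants and 9.05% against controls. Of these 4, 2 passed the filter only through the double mutants. The flanks also hold copies of the same sequence groups, among them Gm49326, Gm21297 and Gm49329, so they are no unrelated background.

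In RNAi mutants most members stayed within reach of the controls. By the same rule 11 of 66 were higher and 5 lower, where the shares over all genes were 9.39% and 5.22%. The members' shares were 16.7% and 7.58%, and the median log2 difference was 0.06 beside -0.02, and -0.10 to 0.07 with 1 sample left out. The interval was chosen on a contrast that holds these RNAi mutants, and 26 of the 66 members passed the filter only through the double mutants. Nothing is therefore read from these shares. The 5 Hpcal1-like members among the 11 included Gm49248, with 0.159, 0.0667, 0.197 and 0.263 CPM in the controls and 0.508 and 0.667 CPM in RNAi mutants. Without the RNAi mutant of 13 weeks the count of higher members was 6, while 9.63% of all genes were higher.

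The 1 piRNA mutant, which keeps 1 functional copy of the oocyte Dicer isoform, can only be placed by its values. It lay above the range of the controls and at least 1 log2 unit above their mean in 31 of 66 members, and below by the same measure in 1, Gm40849, which was listed at 0 CPM there and at 0.144 to 0.574 CPM in the controls. Over all genes 3.36% were above and 4.57% below. Of the 66 members, 26 passed the filter only through the double mutants, which have the same Mili-DAH/DAH genotype as this sample. Nothing is therefore read from the members' share. Of the listed members 18 of 20 met this rule, and all 20 lay above every control and every RNAi mutant. The 4 controls are the same as in the contrasts above. Set directly against the double mutants, 19 of the 20 listed members were lower in the piRNA mutant than in any of them. The study chose these 20 for their high values in double mutants, and 13 passed the filter only through those samples. Placings of the 20 against every control, RNAi mutant and double mutant were not counted over all genes, so nothing is read from them.

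The level of the piRNA mutant was 17.9 to 61.4% of the double mutant mean across the listed members, with a median of 38.6%. Gm38699 was at 7.76 CPM, Gm49377 at 4.98, Gm46339 at 4.51, Gm49328 at 3.67 and Gm10330 at 3.03, 12.1 to 38.7 times above the highest control. 5730507C01Rik was at 19.1 CPM and Zfp125 at 3.35 CPM, the 2 listed members less than 1 log2 unit above the control mean. Gm47437 was at 1.68 CPM and Gm47385 at 2.0 CPM. AC163633.1, at 1.28 CPM, was the exception that lay among the double mutants, and it stood at least 14.1-fold above the floor of the controls. Above by the same rule were 12 of the 18 unlisted unit or zinc finger-like members and 6 of the 18 Hpcal1-like members. Of the 28 members in neither the unit nor the zinc finger-like group 1 was above, beside 3.36% of all genes. That 1, Gm46338, is among the 6 Hpcal1-like members, and the rest of the 6 hold the short unit. In these 3 groups 11, 4 and 2 members passed the filter only through the double mutants, so nothing is read from the counts.

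The 4 double mutants came from 2 mice of 11 weeks and 2 older ones, and most listed members overlapped between the younger and the older pair. Those of 11 weeks lay above those of 35 and 40 weeks in Gm46339, Gm48643 and AC163633.1, below them in Gm49328, and overlapped them in the other 16. Pairs of 2 samples often part by chance, and the share over all genes was not counted. Nothing about age is therefore read from these genes.

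In the Dicer-only genotypes of the single-end run, which carry no Mili mutation and played no part in choosing the interval, the listed members stayed low. Gm38699 ran from 0.194 to 0.352 CPM over all 11 samples, Gm10330 from 0.0540 to 0.293, Gm49377 from 0.149 to 0.363, Gm49328 from 0.245 to 0.686 and Gm47437 from 0 to 0.0626. 5730507C01Rik ran from 6.06 to 13.5 CPM and 2410018L13Rik from 0.971 to 1.39 CPM. Of the 20 listed members 12 passed the filter in this run, and 1 of the 12 was called in any of the 3 comparisons.

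Across members, the quasi-likelihood test of edgeR, adjusted by Benjamini-Hochberg over 23151 genes, called few. In Dicer-dMT/dMT against wild type none of 56 members rose and 2 fell, where 8.06% of all genes rose and 7.3% fell. At an unadjusted p under 0.05 the test had 2 members higher and 7 lower, and DESeq2 called none in either direction. In Dicer-SOM/SOM against wild type 3 members rose and 4 fell, beside 14.5% and 14.2% of all genes, with 4 up and 11 down at an unadjusted p under 0.05, and DESeq2 called as many in each direction. In Dicer-SOM/SOM against Dicer-dMT/dMT none rose and 1 fell, beside 4.03% and 3.32%, with 4 members up and 7 down at an unadjusted p under 0.05, and DESeq2 called none higher and 2 lower. Median log2 differences of the members were -0.08, -0.28 and -0.14 in the 3 comparisons, and those of all genes 0.01, 0.02 and 0.01. These comparisons share samples with each other.

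The 2 members that fell in Dicer-dMT/dMT were both Hpcal1-like. Gm48528 (chr12:19218082-19218575) had 0.437, 0.366 and 0.592 CPM in wild type, 0.358 in Dicer-dMT/WT, 0.129, 0.162, 0.220 and 0.160 in Dicer-dMT/dMT and 0.0745, 0.0393 and 0.0566 in Dicer-SOM/SOM. The groups did not overlap and the heterozygous sample lay just under wild type. In Dicer-SOM/SOM 3 counts correspond to 0.0471 to 0.435 CPM, the latter in replicate 3, so replicates 2 and 3 lay under 3 counts here. Its log2 difference from wild type was -1.41 ± 0.41 in Dicer-dMT/dMT (edgeR adjusted p = 0.0416) and -3.14 ± 0.57 in Dicer-SOM/SOM (edgeR adjusted p = 0.00208). Gm9249 (chr12:18991483-18997102) had 0.405, 0.274 and 0.294 CPM in wild type, 0.166 in Dicer-dMT/WT, 0.0644, 0.0962, 0.118 and 0.140 in Dicer-dMT/dMT and 0.149, 0.127 and 0.244 in Dicer-SOM/SOM. Its difference in Dicer-dMT/dMT was -1.61 ± 0.42 (edgeR adjusted p = 0.0250). Both calls were lost without any 1 of the 3 wild-type samples, and the one or the other without any 1 Dicer-dMT/dMT sample, with adjusted p-values of 0.0550 to 0.169.

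In Dicer-SOM/SOM the unit Gm47385 was the 1 listed member that fell. It had 1.13, 0.955 and 0.822 CPM in wild type, 1.05 in Dicer-dMT/WT, 0.243, 0.683, 0.338 and 0.566 in Dicer-dMT/dMT and 0.251, 0.269 and 0.306 in Dicer-SOM/SOM, a log2 difference of -1.87 ± 0.41 from wild type (edgeR adjusted p = 0.00579). Every homozygous mutant lay under wild type, whereas the same unit was higher in the double mutants of the other run. The value of Dicer-SOM/SOM replicate 3 was under 3 counts (0.435 CPM in that library). Gm48347 (chr12:18123716-18123840) had 0.345, 0.382 and 0.198 CPM in wild type and 0.00559, 0.0804 and 0.0131 in Dicer-SOM/SOM, a difference of -2.90 ± 0.93 (edgeR adjusted p = 0.0380). This call was lost without Dicer-SOM/SOM replicate 1 or 3 or any 1 wild-type sample, with adjusted p-values of 0.0548 to 0.120, and with the replicate number as a block (edgeR adjusted p = 0.0581). The difference was -7.07 without Dicer-SOM/SOM replicate 2 and -2.22 without replicate 1. Replicates 1 and 3 of Dicer-SOM/SOM were under 3 counts in Gm48347.

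Asap2 fell by 0.53 ± 0.15 on the log2 scale against wild type (edgeR adjusted p = 0.0191) and by 0.64 ± 0.14 against Dicer-dMT/dMT (edgeR adjusted p = 0.0186). It had 109, 123 and 102 CPM in wild type, 130.2 in Dicer-dMT/WT, 131, 113, 112 and 125 in Dicer-dMT/dMT and 93.9, 75.8 and 59.8 in Dicer-SOM/SOM. The Dicer-SOM/SOM samples were the 3 lowest of the run. The call against wild type was lost without wild-type replicate 2 (edgeR adjusted p = 0.0729) or Dicer-SOM/SOM replicate 2 (0.0508), and that against Dicer-dMT/dMT without Dicer-dMT/dMT replicate 1 (0.0531).

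The 3 members that rose in Dicer-SOM/SOM were Hpcal1-like. Gm20474 (chr12:23526491-23573981) had 0.120, 0.138 and 0.108 CPM in wild type, 0.164 in Dicer-dMT/WT, 0.184, 0.204, 0.195 and 0.237 in Dicer-dMT/dMT and 0.519, 0.324 and 0.429 in Dicer-SOM/SOM, a log2 difference of 1.76 ± 0.39 from wild type (edgeR adjusted p = 0.00657). The 4 genotypes followed each other without overlap, though the value of Dicer-SOM/SOM replicate 3 was under 3 counts (0.435 CPM in that library). Gm49248 (chr12:22409487-22414924) differed by 1.88 ± 0.43 (edgeR adjusted p = 0.00756) and Gm46338 (chr12:18905926-18911358) by 1.80 ± 0.43 (edgeR adjusted p = 0.0102), with the same order of genotypes. Their highest single-end value was 0.557 CPM. That of Gm46338 was 0.362 CPM, so Dicer-SOM/SOM replicate 3 was under 3 counts in this gene too. The call of Gm46338 was lost without Dicer-SOM/SOM replicate 1 (edgeR adjusted p = 0.0632) or wild-type replicate 1 (0.0510). The 6 B cell markers looked at summed to 191 to 201 CPM in wild type and 83.4 to 121 CPM in Dicer-SOM/SOM, 4 of the 6 over 3 counts in every library, and 8 granulosa and cumulus markers to 33.3 to 39.9 and 33.1 to 77.4 CPM. Their part in these results was not tested.

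**Figure D3:**
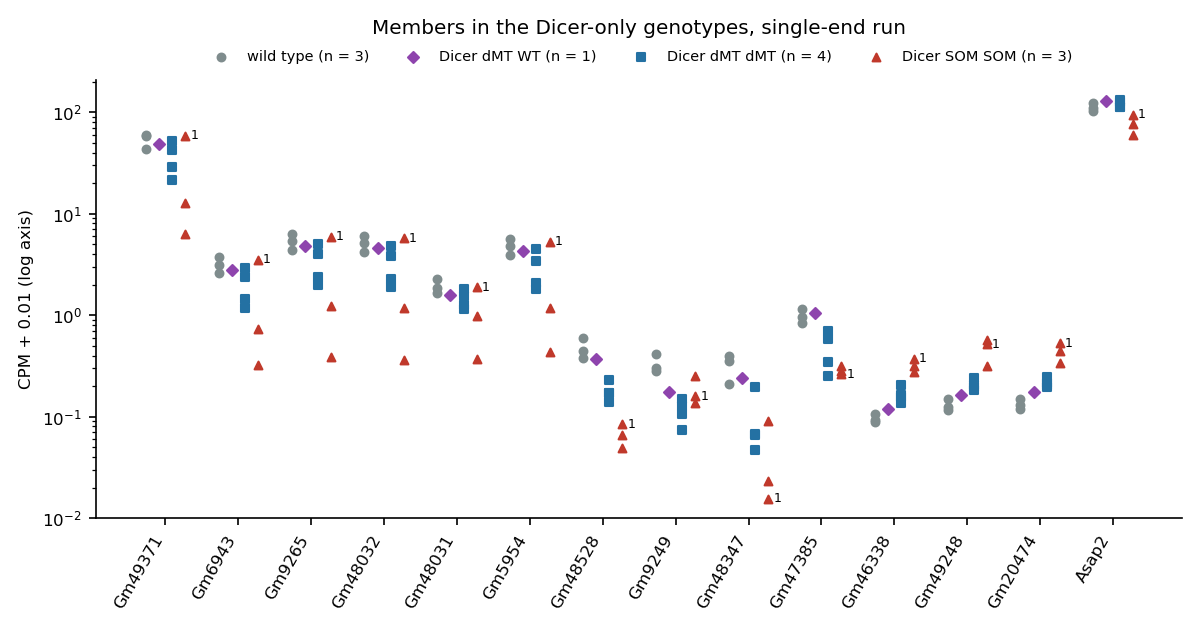
CPM with 0.01 added (y axis, log scale) of 14 members in the single-end run, 1 symbol per sample for 3 wild-type, 1 Dicer-dMT/WT, 4 Dicer-dMT/dMT and 3 Dicer-SOM/SOM samples, with Dicer-SOM/SOM replicate 1 numbered. That replicate lies with wild type and the other 2 below it in the 6 members on the left, whereas all 3 lie on one side in most members on the right.

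The 3 Dicer-SOM/SOM samples did not lie together in a set of members around Gm49371. Gm49371 had 57.6, 59.0 and 43.5 CPM in wild type, 48.5 in Dicer-dMT/WT, 28.7, 42.0, 51.6 and 21.5 in Dicer-dMT/dMT and 58.5, 12.7 and 6.32 in Dicer-SOM/SOM. Gm48032 had 6.06, 5.16 and 4.18 CPM in wild type, 2.28, 3.78, 4.81 and 1.88 in Dicer-dMT/dMT and 5.70, 1.16 and 0.355 in Dicer-SOM/SOM. Gm5954 had 5.57, 4.81 and 3.89 CPM in wild type, 2.07, 3.42, 4.43 and 1.81 in Dicer-dMT/dMT and 5.25, 1.16 and 0.425 in Dicer-SOM/SOM. In each of these genes Dicer-SOM/SOM replicate 1 lay within the wild-type range and the other replicates far under it. None of the 3 was called with all samples, at edgeR adjusted p of 0.250, 0.303 and 0.293. Without that replicate 16 members fell against wild type in place of 4, 8 of them Hpcal1-like, while the share of all genes that fell went from 14.2% to 12.5%. Gm49371 then differed by -2.36 ± 0.40 (edgeR adjusted p = 0.00199). Without wild-type replicate 2 the count was 2, beside 9.87% of all genes. The replicate with the lowest values, number 3, also had the fewest counts of the run. Its Gm48032 and Gm5954 values were under 3 counts (0.435 CPM in that library).

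Summed over members, the interval took its largest shares of all counts in the double mutants and the piRNA mutant. All 163 members made up 609 to 795 CPM of all counts, with no scaling of libraries, in the single-end run, 751 to 817 in the controls, 741 to 771 in RNAi mutants, 845 in the piRNA mutant and 835 to 899 in double mutants. The 6 single-copy genes alone gave 475 to 601 and 598 to 666 of these in the 2 runs. The 20 listed members went from 14 to 20.7 CPM in the controls and 15.4 to 17.9 in RNAi mutants to 65.8 in the piRNA mutant and 151 to 183 in double mutants, and stayed at 12 to 20.0 in the single-end run. The Hpcal1-like members took 61.3 to 106 CPM in the controls and 35.1 to 56.5 in double mutants, and 64.2 to 80.6 in wild type against 84.0, 22.6 and 16.1 in Dicer-SOM/SOM.

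**Figure D4:**
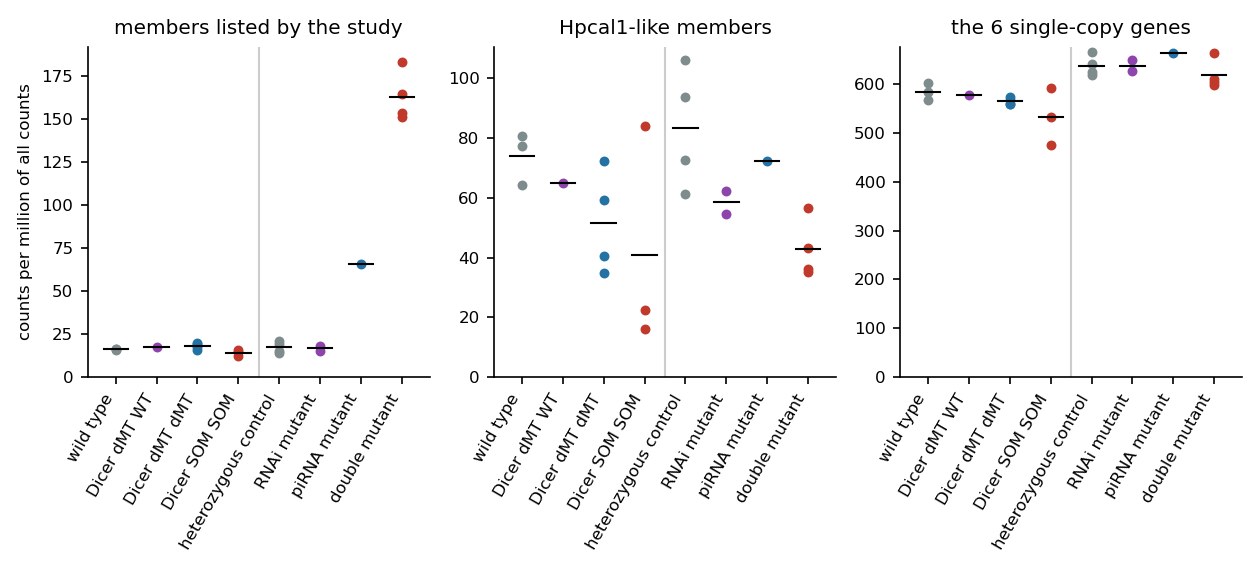
Summed share of all counts (y axis, CPM of all counts, from 0) of the listed members, the Hpcal1-like members and the 6 single-copy genes in each sample (points) with the group mean (line), the grey line parting the single-end from the paired-end run. The listed members reach 151 to 183 in double mutants and 65.8 in the piRNA mutant, and at most 20.7 in every other sample.

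At the ends of the interval the pattern does not stop at the boundary genes. The study describes its duplicated locus as larger than the interval taken here, so genes just outside may lie within that locus. The first members are Gm49331, described above, and B430203G13Rik, at or under 0.10 CPM in every sample, and the last are Gm5954 and 9030624G23Rik. Just outside lie Gm48315, with counts in only 1 sample, and Gm49329 (chr12:17900734-18065610), an Hpcal1-like gene that starts before the interval and had 0.602, 0.438, 0.393 and 0.365 CPM in the controls and 3.06, 3.38, 2.36 and 3.26 CPM in double mutants. After the end, Gm47446 had at most 0.0417 CPM in the controls and at most 0.00948 CPM in double mutants. Gm21297, the unit shown last above, had 0, 0.0333, 0.0139 and 0 CPM in the controls, 0.266 in the piRNA mutant and 1.55, 1.07, 0.567 and 1.1 in double mutants. Gm49326, the unit shown first, had 0.139, 0.134, 0.0624 and 0.228 CPM in the controls, 0.553 in the piRNA mutant and 0.812, 2.0, 1.35 and 2.17 in double mutants. In both units outside the interval the piRNA mutant lay above all controls and RNAi mutants and below all double mutants.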

How the data were processed

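Libraries (Ovation RNA-seq V2, not stranded) of germinal vesicle oocytes were mapped by the authors with STAR 2.5.3a to mm10 and counted with featureCounts per GENCODE M15 gene, without regard to strand and with reads of several places or genes divided between them. The deposited values are therefore expected counts that need not be whole. They were rounded for the tests, and 0 columns were left unused. Members and lists were chosen with earlier results of these data known.

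From these counts CPM were computed with TMM-scaled library sizes, and RPKM with the exon length of the table. Genes were filtered within each run (edgeR filterByExpr, minimum count 10, minimum total 15), which left 23151 single-end and 20989 paired-end genes. Single-end genotypes were compared with edgeR 4.0.16 (quasi-likelihood F test, Benjamini-Hochberg over all genes of the run, adjusted p under 0.05, R 4.3.3) in 1 fit of the 10 samples of replicated genotypes, and the lone Dicer-dMT/WT sample was only placed by its values. Paired-end samples were fitted the same way for log2 differences with their standard errors and without p-values, since the interval was chosen on them. The piRNA mutant was placed with log2 CPM at a prior count of 2, and the fitted differences took that of edgeR by default. DESeq2 1.42.0, DESeq2 size factors, no filter, unrounded counts, fits of 2 groups, a replicate block, a prior count of 2, younger animals and each sample left out were tried as alternatives. How many members passed the paired-end filter without the double mutants was counted after the data were seen. The fits were tested on simulated counts.

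Named members were those listed by the study, the 5 largest calls in each direction of each single-end comparison, the 5 highest in wild type by RPKM, the 6 single-copy genes and the 2 genes on either side of each end. Other members are named after their values were seen. Sequence groups came from blastn 2.17.0 of GENCODE M21 transcripts: at least 90% identity over 100 bases to Gm47437 (short unit), 75% over 300 bases to Gm38699 or Gm10330 (zinc finger-like) and 85% over 300 bases to Hpcal1, with Asap2 itself kept out. All 163 symbols were found in GENCODE M21, 152 with the same coordinates. Replicate numbers of the single-end genotypes come from the sample names. Deviations of samples with the same number correlated at -0.025 to 0.054 over genes, so the numbers were not taken to pair the samples.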

Additional observations from a re-analysis of the deposited data

Results flagged for a closer look

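In 103 groups of 4 samples, made of the named members in each group of that size, the highest or lowest sample was set against the others by Dixon's ratio at its 95% critical value, and 9 groups had a sample that stood apart. Chance alone gives about 1 such group in 20. Of these, 3 concern members that are low throughout the single-end run: Gm48347 at 0.184 CPM and Gm40848 at 0.263 CPM in Dicer-dMT/dMT replicate 1, and AC163633.1 at 0.0650 CPM in replicate 3. Gm10330 stood at 0.196 CPM in Dicer-dMT/dMT replicate 2, and Ywhaq was lowest in replicate 4 at 57.6 CPM. Among the controls, Zfp125 was highest in replicate 1 at 2.55 CPM, and Gm48347 lowest in replicate 4 at 0.0776 CPM. Double mutant replicate 1, from the mouse of 40 weeks, had the lowest Gm48035 at 3.75 CPM and the highest Gm10330 at 19.1 CPM, and both values lay above all controls and RNAi mutants.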

How the results depend on the processing

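Of 1019 recomputed values, 859 kept their direction and their side of the threshold or moved by less than the spread. Another 129 moved, and 31 were calls that lost significance. Differences of single members were recomputed only for the single-end calls and for the listed members in double mutants. None of them changed sign, but they had been picked as large differences. Sign was not tracked for medians, and the median of members in RNAi mutants against controls, 0.06 with all samples, ran from -0.10 to 0.07 with 1 sample left out. The 2 members lower in Dicer-dMT/dMT than in wild type became 0 with DESeq2's Wald test, with no filter on low counts and with the replicate block, and 4 when only these 2 genotypes were fitted. The cause was not tested. The replicate block also lost the call of Gm48347, given above, and took no other count of called members past 1.5 times its value, and a paired-end block was not run because those replicate numbers follow the order of deposit. The 1 member lower in Dicer-SOM/SOM than in Dicer-dMT/dMT became 2 with DESeq2. Without the single-copy genes the lowest summed share went from 609 to 115 CPM of all counts and the highest from 899 to 284, since those genes hold most of the counts. Leaving out 1 sample at a time gave, for Dicer-SOM/SOM against wild type, 2 to 4 members higher and 2 to 16 lower, for Dicer-dMT/dMT against wild type 0 to 3 lower, and for Dicer-SOM/SOM against Dicer-dMT/dMT 0 to 4 lower. No member was called higher in the last 2 comparisons whichever sample was left out. Members higher in double mutants numbered 27 to 36 against RNAi mutants and 29 to 36 against controls, members higher in RNAi mutants 6 to 12, and members outside the control range in the piRNA mutant 32 to 34. Of 600 recomputed differences of the listed members in double mutants, 531 moved by less than the SD of the 4 double mutants (log2 CPM). Depth limits the 86 members under the filter in both runs, whose absence of a call says nothing, and reads shared between copies limit every single copy.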
